A study of Mus musculus with 24 samples.

Results

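The secreted products of goblet cells were followed in the CD45- cells of the mouse ileum through 10 genes: Muc2, Fcgbp, Clca1, Zg16, Tff3, Agr2, Spink4, Itln1, Ang4 and Retnlb. They were chosen by name as known secreted products of goblet cells, by no threshold on their values, and all 10 are among the 39056 genes of the count table. Their levels were read in the 12 CD45- libraries, as CPM (counts scaled so that the gene counts of every library sum to the same fixed total) and as ratios to Epcam, a surface protein of every intestinal epithelial cell. The other 12 of the 24 libraries of the series came from CD45+ cells.

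Goblet cells are the mucus-secreting cells of the intestinal epithelium. They pack the gel-forming mucin MUC2 and its partner proteins into granules, release them towards the lumen and thereby keep bacteria away from the cell surface. In type 2 immunity, IL-13 and IL-4 act on the epithelium through the receptor chain IL-4Rα and the transcription factor STAT6, goblet cells multiply, and a subset of goblet cell genes is induced. Clca1, Retnlb, Ang4 and intelectins are known members of that induced subset, whereas Muc2, Fcgbp, Zg16 and Tff3 are made by resting goblet cells as well.

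The mice were C57BL/6, of both sexes and 9.0 to 10.3 weeks old, and fell into 4 genotypes with 3 CD45- libraries each. Hoil1+/+ Il4ra f/f and Hoil1-/- Il4ra f/f mice carried Il4ra alleles flanked by loxP sites and no Cre. Hoil1+/+ Il4ra ΔIEC and Hoil1-/- Il4ra ΔIEC mice carried in addition the Vil1cre transgene, in which the villin promoter drives Cre in intestinal epithelial cells (IECs), so that endothelial and stromal cells of the same sort keep Il4ra. All groups therefore shared the floxed Il4ra alleles. Hoil1 is the common name of Rbck1, which encodes a subunit of the linear ubiquitin ligase complex. Part of the detached epithelial fraction was mixed with digested lamina propria before live CD45- singlets were sorted, so each library held epithelial, endothelial and stromal RNA, and in such bulk RNA fewer goblet cells and less RNA per goblet cell cannot be told apart. Nothing in the labels ties a library to a named animal, and p-values measure the spread between these libraries only. The third replicate of Hoil1-/- f/f was left out by the authors as an outlier in a principal component analysis. It is shown among the 12 libraries here, and the tests were run on the other 11 unless all 12 are named.

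The sequences of the products on which the differences below turned are shown first, because close relatives of these genes could take some of their reads. In the first 300 coding bases of Retnlb and of Ang4, written from GENCODE M21, capitals mark the bases that differ from the nearest family member, Retnlg and Ang5 respectively.
Retnlb: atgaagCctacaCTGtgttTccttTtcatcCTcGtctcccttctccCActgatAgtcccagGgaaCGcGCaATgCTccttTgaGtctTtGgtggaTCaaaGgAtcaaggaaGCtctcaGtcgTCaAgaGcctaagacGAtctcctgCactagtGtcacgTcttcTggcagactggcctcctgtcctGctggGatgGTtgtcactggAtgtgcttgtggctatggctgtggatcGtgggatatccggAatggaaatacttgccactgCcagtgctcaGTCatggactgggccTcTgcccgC
Ang4: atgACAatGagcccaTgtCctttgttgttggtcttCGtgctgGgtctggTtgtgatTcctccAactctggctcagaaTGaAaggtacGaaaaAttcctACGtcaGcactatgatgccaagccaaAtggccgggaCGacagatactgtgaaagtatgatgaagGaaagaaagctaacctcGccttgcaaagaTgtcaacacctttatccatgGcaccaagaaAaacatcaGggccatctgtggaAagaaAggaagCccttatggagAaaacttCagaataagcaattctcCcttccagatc
Over their whole coding sequences, Retnlb was 73.2% identical to Retnlg, and Ang4 was 88.1% identical to Ang5. No stretch of 50 bases of the Retnlb transcript occurred in another annotated gene, and neither did any of the Muc2, Clca1, Zg16, Tff3, Agr2 or Spink4 transcripts. The check used a single transcript of each gene. That of Muc2 was 2926 bases long, against 7127 annotated exonic bases of the gene, so much of Muc2 was not checked. For Ang4, 4.70% of the stretches of 50 bases also occurred in Ang5 and none of 100 bases did in any gene, and for Itln1 the share of 50 bases was 1.01%. Fcgbp shared 8.56% of its stretches of 50 bases and 2.13% of those of 100 bases with another gene, mostly 9530053A07Rik, the largest share among the 10 transcripts checked.

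STAT factors bind palindromes of TTC and GAA, with STAT6 preferring 4 bases between the arms (TTCNNNNGAA) and other STATs 3 (TTCNNNGAA). Promoter windows of GRCm38.p6 from RefSeq, 250 bases before to 50 after the start site, were at hand for 5 of the 10 genes: Muc2, Fcgbp, Agr2, Ang4 and Itln1. Both motifs read the same on either strand and matches of one that overlap the other would have been kept. The STAT6 form was in 2284 of 32851 windows (6.95%) and in none of the 5. The form with 3 bases between the arms was in 2726 windows (8.30%) and in 1 of the 5, that of Ang4, where its first base lay 192 bases before the start site. The 250 bases before the start are shown for Ang4, which holds the match, for Itln1, the other antimicrobial product of the 5, and for Muc2 as the reference product, with the match in capitals.
Ang4, window chr14:51773541-51773840, minus strand: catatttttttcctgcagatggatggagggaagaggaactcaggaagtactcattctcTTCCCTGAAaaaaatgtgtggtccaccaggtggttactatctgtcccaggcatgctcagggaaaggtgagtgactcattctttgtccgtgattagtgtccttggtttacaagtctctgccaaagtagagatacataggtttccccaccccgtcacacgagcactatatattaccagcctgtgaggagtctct
Itln1, window chr1:171535245-171535544, minus strand: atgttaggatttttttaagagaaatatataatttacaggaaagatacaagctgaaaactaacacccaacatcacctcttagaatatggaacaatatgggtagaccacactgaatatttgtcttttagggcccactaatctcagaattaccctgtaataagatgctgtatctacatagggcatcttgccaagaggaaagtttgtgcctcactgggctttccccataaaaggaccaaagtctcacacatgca
Muc2, window chr7:141690090-141690389, plus strand: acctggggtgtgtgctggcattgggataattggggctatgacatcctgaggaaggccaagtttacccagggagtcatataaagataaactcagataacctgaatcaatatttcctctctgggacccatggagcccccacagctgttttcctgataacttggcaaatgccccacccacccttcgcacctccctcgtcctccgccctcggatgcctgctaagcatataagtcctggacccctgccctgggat
A match in this window is a description of its letters, and its absence says nothing about the factor.

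The CD45- libraries held 6.03 to 68.3 M gene counts, with a median of 14.8 M. Among the 6 Hoil1-/- libraries Rbck1 reached at most 8.71 CPM, against at least 70.9 CPM among the 6 Hoil1+/+ libraries. Il4ra was at 64.2, 187 and 109 CPM in Hoil1+/+ f/f, at 42.0, 51.5 and 149 CPM in Hoil1+/+ ΔIEC, at 61.2, 82.0 and 77.6 CPM in Hoil1-/- f/f and at 158, 110 and 74.8 CPM in Hoil1-/- ΔIEC libraries. Its ranges overlapped between all genotypes, and a count over the whole gene in a mixed sort does not show the deletion in IECs. The cell makeup varied widely: the summed level of 10 epithelial markers ran from 1652 to 14625 CPM, that of 12 endothelial markers from 2891 to 23562 CPM and that of 10 stromal and muscle markers from 809 to 14433 CPM, while 9 hematopoietic markers summed to at most 44.1 CPM. Because ratios to Epcam depend on this makeup, the epithelial panel was also used as a reference. Muc2 was added as a reference after values were seen.

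The 10 products took a large and very variable share of these libraries. Together they made up 3.93%, 0.613% and 0.954% of all gene counts in the Hoil1+/+ f/f libraries. In Hoil1+/+ ΔIEC libraries the share was 1.93%, 1.99% and 0.764%, in Hoil1-/- f/f libraries 5.15%, 3.51% and 1.17%, and in Hoil1-/- ΔIEC libraries 0.886%, 0.268% and 2.75%. The highest library was a Hoil1-/- f/f and the lowest a Hoil1-/- ΔIEC, yet 1 or more libraries of each genotype lay among those of the others. By median CPM per kilobase of annotated exon over the 12 libraries, Tff3 was highest (3640), followed by Zg16 (2118), Spink4 (1033), Itln1 (661), Agr2 (556), Fcgbp (501), Clca1 (392), Muc2 (215) and Ang4 (182), with Retnlb at 0 in 7 of 12 libraries. Each gene varied from library to library by more than the steps between neighbours of this order, from 10.6-fold between lowest and highest for Spink4 to 135-fold for Ang4.

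**Figure D1:**
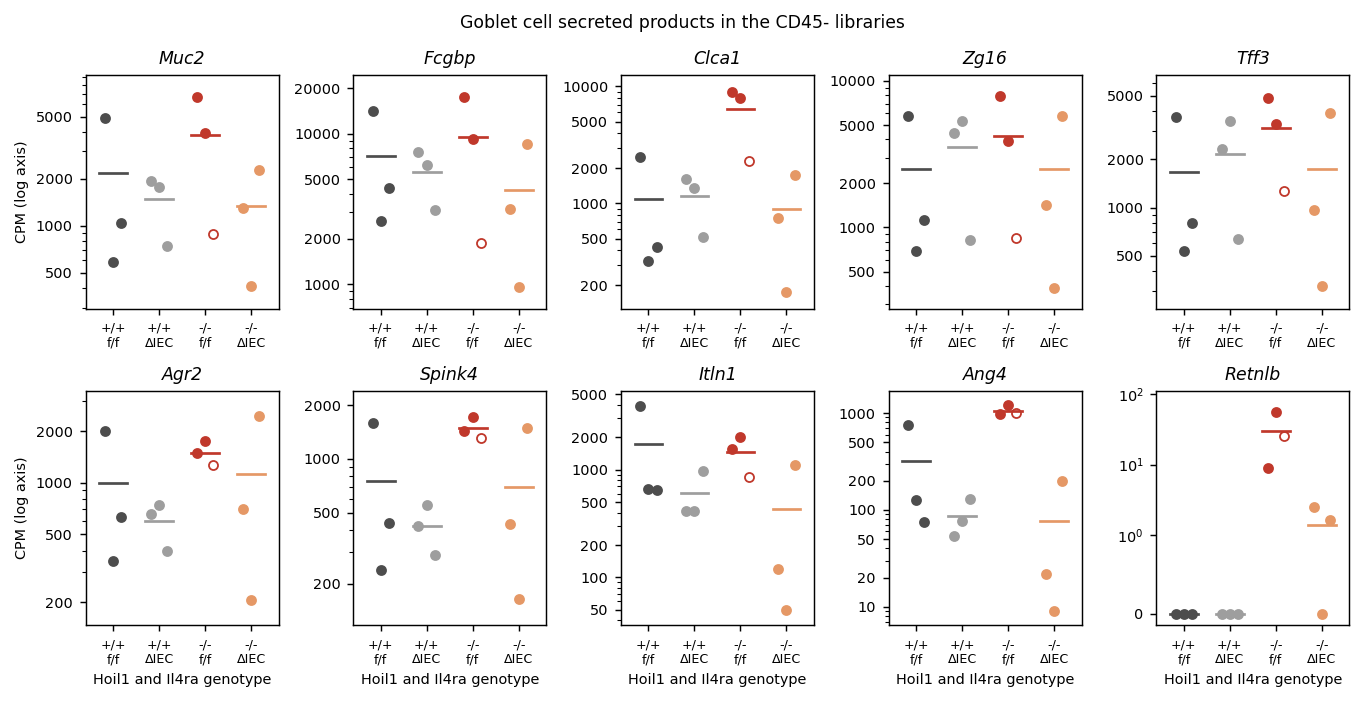
Level of each goblet cell product in the 12 CD45- libraries, in CPM on a log axis (for Retnlb linear below 1 CPM so that 0 can be drawn). Points are libraries, bars are group means, and the open point is the Hoil1-/- f/f library that the authors left out; Clca1 and Ang4 are higher in every Hoil1-/- f/f than in any Hoil1-/- ΔIEC library, and Retnlb is counted only in Hoil1-/- libraries.

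Apart from Retnlb, the products varied together across libraries, and with the epithelial share. For the 9 products counted in every library, the 36 pairs had Pearson correlations of log2(CPM + 0.5) between 0.48 and 0.98, with a median of 0.80 over the 12 libraries. These pairs share the libraries, their depth and their cell makeup, and the values are a description. The mean of the 10 standardized levels correlated at 0.86 with Epcam, at -0.80 with the endothelial gene Pecam1 and at -0.69 with the collagen gene Col1a1. The libraries with the highest summed levels of products, 51529 CPM in Hoil1-/- f/f, 39303 CPM in Hoil1+/+ f/f and 35120 CPM in Hoil1-/- f/f, held Epcam at 1324, 788 and 1189 CPM. The first and second Hoil1+/+ ΔIEC libraries had more Epcam than that Hoil1+/+ f/f library, but only 19330 and 19911 CPM of products. Among the 16453 genes tested, the 5 most like the products in this measure were Oit1 (r = 0.98), Klk1, a kallikrein (0.98), Scin, which encodes an actin-severing protein (0.97), Capn9, a calpain of the digestive tract (0.96), and Guca2a, which encodes guanylin (0.96). The goblet and secretory lineage factors Atoh1 and Spdef stood at 0.94 and 0.93.

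**Figure D2:**
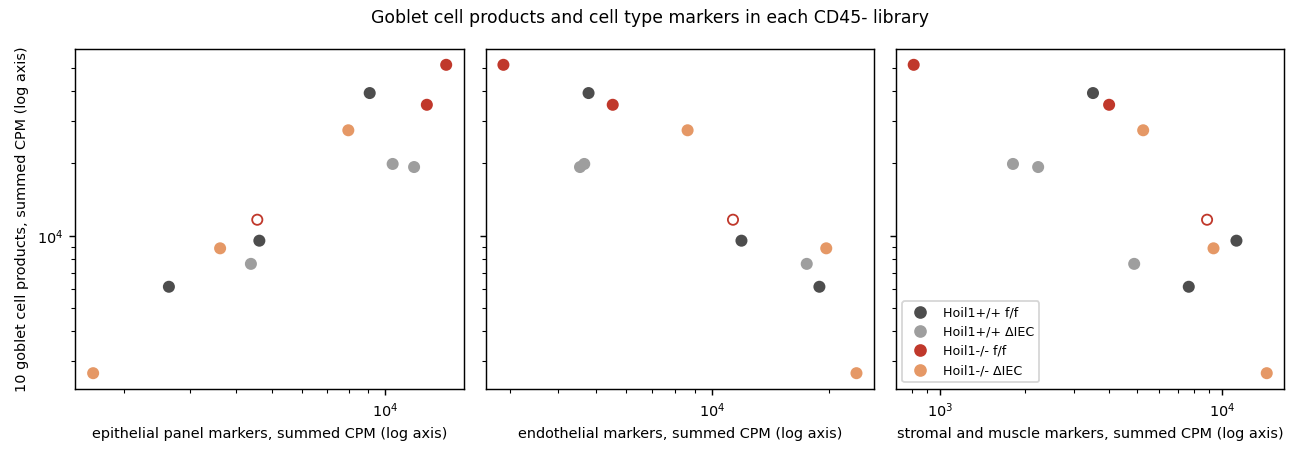
Summed CPM of the 10 goblet cell products against the summed CPM of epithelial (left), endothelial (middle) and stromal and muscle markers (right), all on log axes, with 1 point per CD45- library coloured by genotype and the open point the library that the authors left out. The products span 2676 to 51529 CPM and the epithelial sum 1652 to 14625 CPM, with the lowest and the highest library the same in both, and are lower where endothelial markers are higher.

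The comparison of Hoil1-/- with Hoil1+/+ mice carrying intact Il4ra asks what HOIL1 loss does to these products where the epithelium can sense IL-13. All 9 products other than Retnlb were estimated higher in Hoil1-/- f/f libraries, by a median of 1.43 on the log2 scale against -0.17 over all genes, but none passed the threshold of an adjusted p of 0.05 in edgeR's quasi-likelihood test. Of the 16453 genes tested, 6 passed (0.0365%). At an unadjusted p under 0.05 there was 1 of the 9 products, Clca1, against 13.1% of all genes. DESeq2, which gives no adjusted p for some genes, also called Clca1 alone among the 9, and 613 of 14985 genes (4.09%). The epithelial markers lay higher by a similar amount, with a median of 1.34 for the 10 genes of the panel and 2.38 for 12 enterocyte markers, and Epcam itself by 1.5 ± 0.60 (SE, adjusted p = 0.363). Endothelial markers had a median of -1.23 and stromal and muscle markers of -1.02, while plasma cell markers, the source of antibody, had one of 1.74 and summed to 910 to 7021 CPM in Hoil1-/- f/f and 175 to 3108 CPM in Hoil1+/+ f/f libraries. Their part in the estimates was not tested, but relative to Epcam the median of the 9 products was 0.22.

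The mirror comparison, ΔIEC against f/f in Hoil1-/- mice, asks what the loss of epithelial Il4ra does. All 9 products were estimated lower in ΔIEC libraries, with a median of -1.86 against 0.17 over all genes, and again none of the 10 passed in edgeR, where 7 of 16453 genes did (0.0425%). At an unadjusted p under 0.05 there were 3 of the 9 products, Muc2, Clca1 and Ang4, against 17.7% of all genes. DESeq2 called Clca1 among 1182 of 14681 genes (8.05%), and the likelihood ratio test of edgeR called Clca1 and Ang4 among 656 of 16453 (3.99%). The estimates of the epithelial panel had a median of -1.57, those of the enterocyte markers -3.64, those of the endothelial markers 1.71 and those of the stromal and muscle markers 1.65, and Epcam was lower by an estimated log2 of -1.74 ± 0.61 (adjusted p = 0.223). The part of this makeup in the estimates was not tested, but relative to Epcam the median of the 9 products was -0.35.

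Between Hoil1-/- and Hoil1+/+ mice of the ΔIEC genotype, 2 of the 9 had positive estimates, with a median of -0.57, and none of the 10 passed in edgeR, as against 1 gene of all (0.00608%). At an unadjusted p under 0.05 there were 0 of the 9 against 7.66% of all genes, and DESeq2 called no product against 145 of 14681 genes (0.988%). Between ΔIEC and f/f mice of the Hoil1+/+ genotype, 3 of the 9 were positive, with a median of -0.29, and none of the 10 passed in edgeR, as against 0 genes of all (0%). At an unadjusted p under 0.05 there were 0 of the 9 against 4.4% of all genes, and DESeq2 called no product against 17 of 16169 genes (0.105%). The Hoil1 effect averaged over both Il4ra genotypes was positive for 8 of the 9, with a median of 0.53, and no product passed against 3 genes of all (0.0182%), of which Rbck1 was 1 (log2 -4.23 ± 0.33, adjusted p = 0.00106). The difference of the Hoil1 effects, ΔIEC minus f/f, was negative for all 9, with a median of -1.89, was largest among them for Clca1 (-3.82 ± 1.42, adjusted p = 0.188), and was called for no product and 0 genes (0%). At an unadjusted p under 0.05 there were 0 of the 9 products for the averaged effect against 5.28% of all genes, and 1, Clca1, for the difference against 20.7%. DESeq2 called the difference for Clca1 (adjusted p = 0.0352), as it did for 1466 of 14985 genes (9.78%), and called the averaged effect for none of the 9 products and for 172 of 15291 genes (1.12%). It gave no adjusted p for Ang4 or Itln1.

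**Figure D3:**
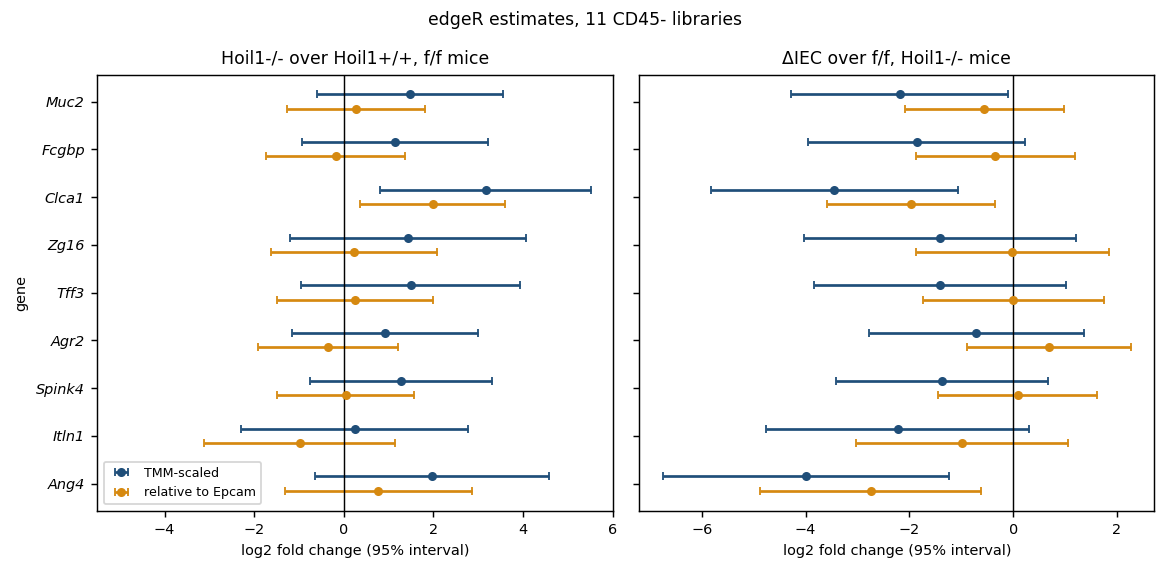
Log2 fold changes with 95% intervals from edgeR in 11 CD45- libraries for 9 goblet cell products, for Hoil1-/- over Hoil1+/+ in f/f mice (left) and ΔIEC over f/f in Hoil1-/- mice (right), scaled by TMM (blue) or relative to Epcam (orange). Only the intervals of Clca1 on the left, and those of Clca1, Ang4 and, on the TMM scale, Muc2 on the right, leave out 0, and none of these estimates passed after adjustment; Retnlb is left out because its Hoil1+/+ counts are all 0.

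Scaling the libraries to their Epcam counts instead of the TMM factors also gave no called product. In f/f mice 0 of 16452 genes passed in edgeR for the Hoil1 effect (0%), in ΔIEC mice 0 (0%), and averaged 0 (0%), and for the Il4ra effect 0 in Hoil1-/- (0%) and 0 in Hoil1+/+ mice (0%). At an unadjusted p under 0.05 there were 1, 2, 1, 2 and 1 of the 9 products in these comparisons, in that order, against 33.7%, 17.4%, 3.81%, 49.0% and 4.03% of all genes. The median of all genes on this scale sat at -1.94 for the Hoil1 effect in f/f mice and at 2.31 for the Il4ra effect in Hoil1-/- mice, while the 9 products had medians of 0.22 and -0.35. The enterocyte markers stood at 1.35 and -1.70 on this scale, so even among epithelial genes the estimates relative to Epcam were unequal. For the difference of the Hoil1 effects, 7222 of 16452 genes passed (43.9%) around a median of 3.39, none of them a product. The 9 products had a median of 0.48 for that difference, and the 9 other genes of the epithelial panel 0.16. Without the outlier removal, with all 12 libraries, 0 of 15331 genes passed for that difference, around a median of 2.72.

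Muc2 (ENSMUSG00000025515.15, chr7:141690340-141754693, plus strand) encodes the gel-forming mucin itself. It stood at 4928, 585 and 1041 CPM in Hoil1+/+ f/f, 1931, 1767 and 748 CPM in Hoil1+/+ ΔIEC, 6636, 3941 and 890 CPM in Hoil1-/- f/f and 1302, 409 and 2292 CPM in Hoil1-/- ΔIEC libraries. The genotypes overlapped, and the lowest Hoil1-/- f/f library was below 2 of the 3 Hoil1+/+ f/f libraries. On the TMM scale the Hoil1 effect in f/f mice was 1.48 ± 0.94 (log2, SE, adjusted p = 0.461), and relative to Epcam it was 0.27 ± 0.72 with a 95% interval from -1.26 to 1.81. An increase of Muc2 beyond that of Epcam was thus not detectable at this spread.

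The ratio of Muc2 to Epcam showed another order. It was 6.26, 2.07 and 2.01 in Hoil1+/+ f/f, 1.71, 1.98 and 1.35 in Hoil1+/+ ΔIEC, 5.01, 3.31 and 1.61 in Hoil1-/- f/f and 3.04, 2.1 and 3.37 in Hoil1-/- ΔIEC libraries. Every Hoil1+/+ ΔIEC library was below every Hoil1+/+ f/f and every Hoil1-/- ΔIEC library. The ratios of Agr2 and Spink4 to Epcam were separated in the same 2 ways, and that of Fcgbp from Hoil1+/+ f/f libraries. Retnlb was separated from Hoil1-/- ΔIEC libraries in name only, through the 0.5 CPM added to every level, since 1 of those libraries held no count. Of all genes, 9.65% lay below without overlap in Hoil1+/+ ΔIEC against Hoil1+/+ f/f libraries, and 17.1% lay above in Hoil1-/- ΔIEC against Hoil1+/+ ΔIEC libraries, in this ratio to Epcam, which was at 1128, 891 and 555 CPM in the Hoil1+/+ ΔIEC libraries.

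Fcgbp (ENSMUSG00000047730.17, chr7:28071236-28120862, plus strand) encodes the IgG Fc binding protein that is bound into the mucus gel. Its levels were 14241, 2627 and 4344 CPM in Hoil1+/+ f/f, 7509, 6178 and 3123 CPM in Hoil1+/+ ΔIEC, 17649, 9184 and 1872 CPM in Hoil1-/- f/f and 3158, 955 and 8545 CPM in Hoil1-/- ΔIEC libraries. They tracked those of Muc2 more narrowly than they tracked genotype, and the ratio of Fcgbp to Muc2 stayed between 2.1 and 4.49 in all 12 libraries. Within that narrow band the Hoil1-/- f/f libraries (2.66, 2.33 and 2.1) were all below the Hoil1+/+ f/f libraries (2.89, 4.49 and 4.17), as were 4.32% of all genes. Permuting the Hoil1 labels within each Il4ra genotype, an exact two-sided test, gave p = 0.03 for the log2 ratio of Fcgbp to Muc2 (mean difference -0.54 over 11 libraries) and p = 0.01 with all 12 (-0.58). After adjustment over all genes tested, these p-values were 0.748 and 1. The smallest p this permutation test could give was 0.005, too high for a single gene to pass adjustment over 16452 genes. The adjusted values therefore decide nothing.

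Zg16 (ENSMUSG00000049350.6, chr7:127050156-127087328, minus strand) encodes a lectin that binds bacteria in the mucus, and Tff3 (ENSMUSG00000024029.4, chr17:31125306-31129646, minus strand) the trefoil peptide secreted with MUC2. Zg16 ranged from 387 to 7896 CPM and Tff3 from 323 to 4857 CPM, each lowest in a Hoil1-/- ΔIEC and highest in a Hoil1-/- f/f library, with overlap in all 4 comparisons of genotypes. Relative to Epcam, the Hoil1 effect in f/f mice was 0.22 ± 0.87 for Zg16 and 0.25 ± 0.81 for Tff3. The Il4ra effect in Hoil1-/- mice was -0.02 ± 0.87 for Zg16, with a 95% interval from -1.88 to 1.84. For Tff3 it was -0.00038 ± 0.82, with an interval from -1.74 to 1.74, and no change relative to Epcam was detectable for either at this spread.

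Agr2 (ENSMUSG00000020581.11, chr12:35992907-36004087, plus strand) encodes the endoplasmic reticulum protein needed to fold MUC2, and Spink4 (ENSMUSG00000028415.4, chr4:40920052-40931395, plus strand) a peptide of the Kazal inhibitor family. In the Hoil1-/- f/f libraries Agr2 was at 1487, 1755 and 1260 CPM and Spink4 at 1445, 1725 and 1316 CPM. These 2 genes did not share the drop of Muc2 in the third of these libraries: Spink4 per Muc2 was 0.218, 0.438 and 1.48 there, the last being the highest of all 12 libraries. In Hoil1+/+ f/f libraries Spink4 was at 1596, 238 and 435 CPM and Agr2 at 2012, 346 and 629 CPM, each with 1 library above at least 2 of the 3 Hoil1-/- f/f values. Relative to Epcam, the exact permutation test of the Hoil1 effect gave p = 0.095 for Spink4 (0.74) and p = 0.245 for Agr2 (0.56) on 11 libraries. With all 12 the same exact permutation test gave p = 0.045 (0.89) and p = 0.115 (0.69). With adjustment over all genes tested every one of these was 1, which decides nothing, because the smallest p possible was 0.005.

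**Figure D4:**
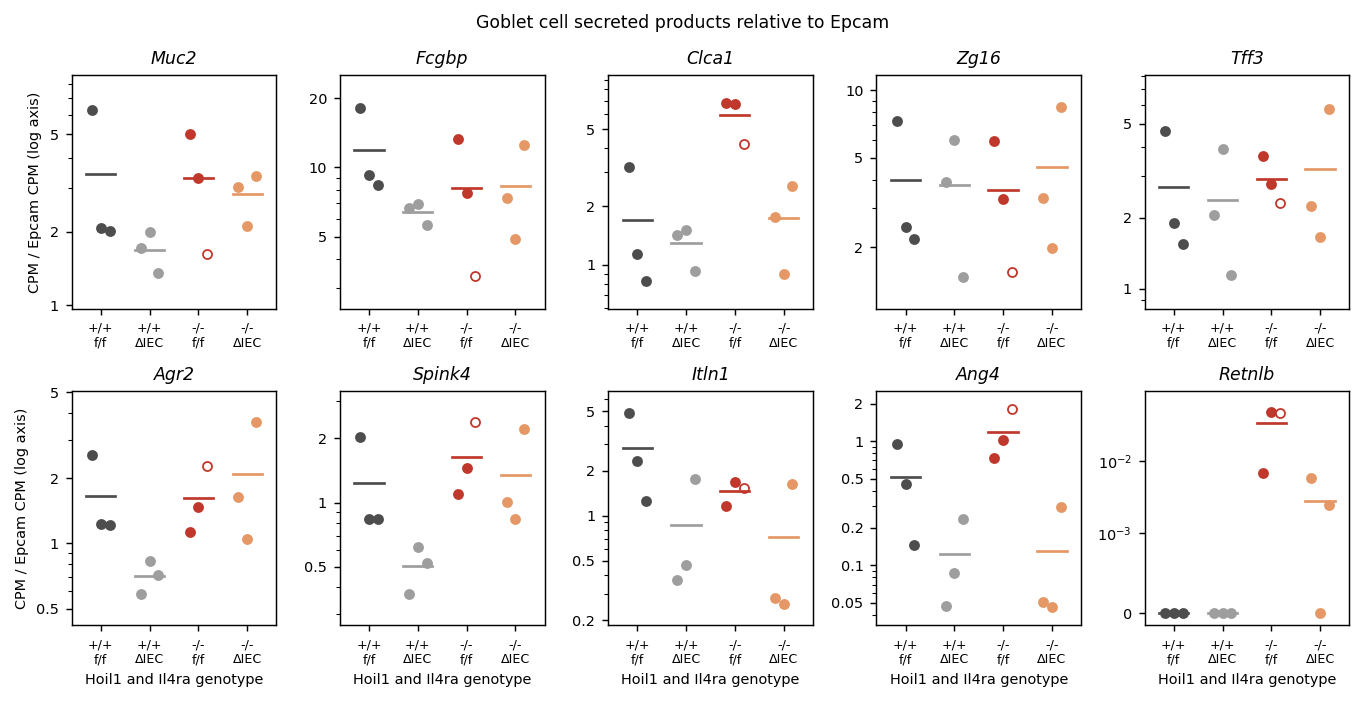
Ratio of each goblet cell product to Epcam in the 12 CD45- libraries, on log axes (for Retnlb linear below 0.001). Points are libraries, bars group means and the open point the library that the authors left out; the Clca1 ratio is 4.22 to 6.82 in Hoil1-/- f/f and at most 3.18 in any other library, while the ratios of Muc2, Zg16 and Tff3 overlap between these groups.

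Clca1 (ENSMUSG00000028255.6, chr3:145003817-145032776, minus strand) encodes a metalloprotease of the mucus that cleaves MUC2 and is a known target of IL-13. Its levels were 2503, 319 and 429 CPM in Hoil1+/+ f/f, 1610, 1351 and 516 CPM in Hoil1+/+ ΔIEC, 9034, 8008 and 2326 CPM in Hoil1-/- f/f and 755, 174 and 1740 CPM in Hoil1-/- ΔIEC libraries. Every Hoil1-/- f/f library was above every Hoil1-/- ΔIEC and Hoil1+/+ ΔIEC library, and 1 of the 3 Hoil1+/+ f/f libraries was above the lowest of them. In CPM, 3.24% of all genes lay below without overlap in Hoil1-/- ΔIEC against Hoil1-/- f/f libraries. The Hoil1 effect in f/f mice was 3.17 ± 1.07 (log2, SE, adjusted p = 0.338 in edgeR and 0.0298 in DESeq2), and the Il4ra effect in Hoil1-/- mice was -3.45 ± 1.08 (adjusted p = 0.207 in edgeR and 0.0116 in DESeq2).

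A difference was also seen relative to Epcam and to Muc2. Clca1 per Epcam was 3.18, 1.13 and 0.827 in Hoil1+/+ f/f, 1.43, 1.52 and 0.929 in Hoil1+/+ ΔIEC, 6.82, 6.73 and 4.22 in Hoil1-/- f/f and 1.76, 0.895 and 2.56 in Hoil1-/- ΔIEC libraries. The Hoil1-/- f/f libraries stood above all others, and above Hoil1+/+ f/f with 0.298% of all genes and above Hoil1-/- ΔIEC with 0.45% of them. In edgeR relative to Epcam the Hoil1 effect in f/f mice was 1.99 ± 0.76 (adjusted p = 0.145) and the Il4ra effect in Hoil1-/- mice was -1.96 ± 0.76 (adjusted p = 0.0744). The averaged Hoil1 effect on the ratio was 1.29 with an exact permutation p of 0.075 in 11 libraries and 1.17 with p = 0.04 in 12. After adjustment over all genes tested both were 1, which decides nothing, because the smallest p possible was 0.005.

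Clca1 per Muc2, a ratio chosen after values were seen, also set Hoil1-/- f/f libraries apart. It was 0.508, 0.546 and 0.412 in Hoil1+/+ f/f, 0.834, 0.765 and 0.689 in Hoil1+/+ ΔIEC, 1.36, 2.03 and 2.61 in Hoil1-/- f/f and 0.580, 0.426 and 0.759 in Hoil1-/- ΔIEC libraries. The Hoil1-/- f/f libraries lay above the other 9 without overlap. Of all genes, 0.359% lay above without overlap in Hoil1-/- f/f against Hoil1+/+ f/f libraries in their ratio to Muc2, and 0.419% lay below in Hoil1-/- ΔIEC against Hoil1-/- f/f libraries. The mean log2 difference was 1.99 ± 0.30 (SE) between Hoil1-/- f/f and Hoil1+/+ f/f libraries, and with 3 libraries a group the smallest p an exact two-sided permutation test can give, 0.1, was reached. The averaged Hoil1 effect on this ratio was 0.68 with an exact permutation p of 0.2 in 11 libraries and 0.79 with p = 0.1 in 12. In edgeR with library sizes set to the Muc2 count, 0 of 16452 genes passed for the Hoil1 effect in f/f mice or the Il4ra effect in Hoil1-/- mice. No product had an unadjusted p under 0.05 for the latter in that fit, against 43.3% of all genes. In Hoil1+/+ mice the ratio was higher in all 3 ΔIEC than in all 3 f/f libraries by 0.65 ± 0.15, as for 1.65% of all genes.

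**Figure D5:**
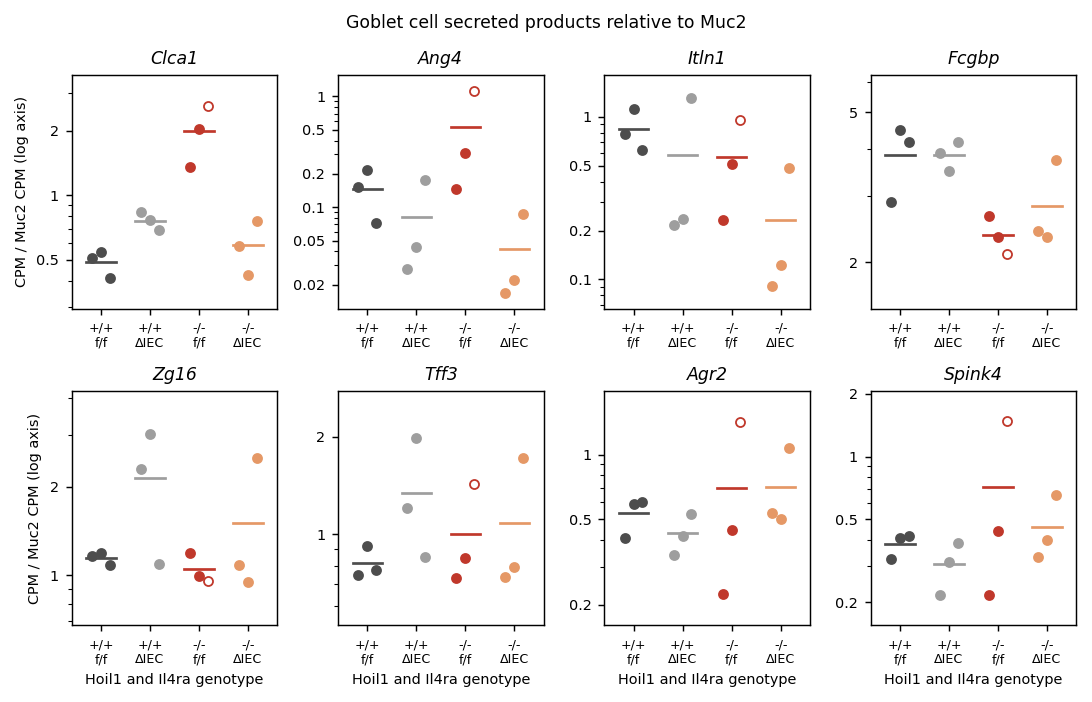
Ratio of 8 goblet cell products to Muc2 in the 12 CD45- libraries, on log axes, with points for libraries, bars for group means and the open point for the library that the authors left out. Clca1 per Muc2 is 1.36 to 2.61 in Hoil1-/- f/f and 0.412 to 0.834 in all other libraries, and Fcgbp per Muc2 stays between 2.1 and 4.49.

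Ang4 (ENSMUSG00000060615.5, chr14:51763878-51773590, minus strand) encodes an angiogenin with antibacterial activity, made by Paneth and goblet cells. It was at 748, 127 and 75.1 CPM in Hoil1+/+ f/f, 53.3, 77.6 and 131 CPM in Hoil1+/+ ΔIEC, 972, 1215 and 1002 CPM in Hoil1-/- f/f and 21.9, 8.98 and 201 CPM in Hoil1-/- ΔIEC libraries. All 3 Hoil1-/- f/f libraries were above all 9 others. In CPM, 2.29% of all genes lay above without overlap in Hoil1-/- f/f against Hoil1+/+ f/f libraries. For Hoil1-/- ΔIEC against Hoil1-/- f/f libraries, 3.24% of all genes lay below without overlap. The Hoil1 effect in f/f mice was 1.97 ± 1.19 (log2, SE, adjusted p = 0.442), and the Il4ra effect in Hoil1-/- mice was -4.0 ± 1.26 (adjusted p = 0.207 by the quasi-likelihood and 0.0294 by the likelihood ratio test).

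Relative to Epcam, Ang4 was lower without overlap in Hoil1-/- ΔIEC (0.0510, 0.0460 and 0.296) than in Hoil1-/- f/f libraries (0.734, 1.02 and 1.82), as were 0.45% of all genes. The Hoil1+/+ f/f libraries (0.950, 0.451 and 0.145) overlapped with those of Hoil1-/- f/f. The Il4ra effect in Hoil1-/- mice was -2.75 ± 1.00 on this scale (adjusted p = 0.0736). It passed when the third Hoil1-/- ΔIEC library was left out (-4.18, adjusted p = 0.0331), as did Clca1 (-2.35, adjusted p = 0.0456). Ang4 also passed when the third Hoil1+/+ ΔIEC library was left out (-2.75, adjusted p = 0.0468). The shares of all genes called in these refits are not given, so the calls cannot be read as particular to the products. In the main fit on this scale, 49.0% of all genes had an unadjusted p under 0.05, around a median of 2.31. Paneth cell genes were also lower in this contrast. On the TMM scale all 13 Paneth markers tested had negative estimates, with a median of -2.57. Relative to Epcam their median was -1.27, with 1 of 13 positive. The summed level of 14 Paneth markers was 352 to 4852 CPM in Hoil1-/- ΔIEC and 3974 to 8837 CPM in Hoil1-/- f/f libraries. In Hoil1+/+ f/f libraries that sum reached 32220 CPM, in the library with the most Ang4 of its group, and the part of Paneth cells in the Ang4 levels was not tested.

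Itln1 (ENSMUSG00000038209.12, chr1:171518122-171535294, minus strand) encodes intelectin, a lectin for microbial sugars that Paneth cells also make. It was at 3853, 658 and 653 CPM in Hoil1+/+ f/f, 417, 415 and 974 CPM in Hoil1+/+ ΔIEC, 1545, 2010 and 849 CPM in Hoil1-/- f/f and 119, 50.3 and 1113 CPM in Hoil1-/- ΔIEC libraries. The groups overlapped in every comparison. Its Hoil1 effect in f/f mice was 0.24 ± 1.15, the smallest estimate of the 10, and relative to Epcam it was -0.98 ± 1.00 (adjusted p = 0.426). The highest library held Lyz1, the lysozyme of Paneth cells, at 11636 CPM, against 90.6 to 2269 CPM in the other 11.

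Retnlb (ENSMUSG00000022650.7, chr16:48816856-48818892, plus strand) encodes RELMβ, a cysteine-rich protein that goblet cells secrete under type 2 cytokines. It had no count in any of the 6 Hoil1+/+ libraries and none in the 12 CD45+ libraries. In Hoil1-/- f/f libraries it had 108, 1669 and 189 counts (8.93, 55.4 and 25.4 CPM), and in Hoil1-/- ΔIEC libraries 44, 0 and 10 counts (2.5, 0 and 1.66 CPM). The Hoil1-/- f/f libraries were thus above all others, and 2 of the 3 Hoil1-/- ΔIEC libraries were above all Hoil1+/+ libraries. Of all genes tested, 2.29% lay above without overlap in Hoil1-/- f/f against Hoil1+/+ f/f libraries in CPM. Against a floor of 3 counts over the whole group (0.0617 CPM), the mean of 29.9 CPM in Hoil1-/- f/f was at least 485-fold higher than in Hoil1+/+ f/f libraries. Without the second Hoil1-/- f/f library this bound was 278-fold, without the second or the third Hoil1+/+ f/f library 300-fold or 254-fold, and without the first Hoil1-/- f/f library 655-fold. In ΔIEC mice the mean of 1.39 CPM was at least 40.4-fold higher than the floor of the Hoil1+/+ group. This bound was 24.1-fold without the first and 60.6-fold without the second Hoil1-/- ΔIEC library, and 8.79-fold without the third Hoil1+/+ ΔIEC library, which holds most of that group's counts. These bounds cover counting error only.

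Retnlb passed the filter on low counts only through the Hoil1-/- libraries, so it was left out of the counts of products at an unadjusted p and its p-values are not given. For the same reason, the shares of all genes without overlap do not measure how rare its separations are. Between f/f and ΔIEC Hoil1-/- mice the mean Retnlb levels differed 21.5-fold, with no overlap, as 3.24% of all genes were lower without overlap in ΔIEC libraries in CPM. Without the second Hoil1-/- f/f library they differed 12.4-fold, and without the first and the second Hoil1-/- ΔIEC library 36.1-fold and 14.4-fold.

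The marker genes of tuft cells, which also expand under IL-13, were high in the Hoil1-/- f/f libraries that entered the tests. Of 13 tuft markers tested, 3 were called higher by the Hoil1 effect in f/f mice and 4 lower by the Il4ra effect in Hoil1-/- mice, where 0.0365% and 0.0425% of all genes were called in either direction. With all 12 libraries, 0 of 15332 genes were called in either comparison, and relative to Epcam none of the 13 markers was called in either. For the difference of the Hoil1 effects relative to Epcam, 1 marker was called higher and 1 lower, where 43.9% of all genes were called. The channel gene Trpm5 was at 214 and 229 CPM in these 2 libraries and at 7.29 to 17 CPM in all Hoil1+/+ and Hoil1-/- ΔIEC libraries. In the Hoil1-/- f/f library that was left out it was at 3.09 CPM, although Clca1, Ang4 and Retnlb were as high there, relative to Muc2, as in no other library. The summed level of the 14 tuft markers in that library was 117 CPM, below the 1024 and 1527 CPM of the others of its group.

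The partners of these products were read from lists of genes. None of the 8 other mucins and goblet products tested of 14 listed, 10 goblet cell transcription and secretory stress factors, 12 of 13 O-glycosylation enzymes, 11 granule trafficking genes, 11 genes of the IL-4 and IL-13 receptor pathway and 8 of 10 other IL-13 induced epithelial genes was called in any comparison on the TMM scale. In the Hoil1 effect in f/f mice, the O-glycosylation enzymes had 12 of 12 positive estimates with a median of 0.60, the trafficking genes 8 of 11 with 1.06 and the transcription factors 8 of 10 with 0.53. The receptor pathway had 3 of 11 with -0.26. Relative to Epcam the medians turned negative, at -0.85 for the O-glycosylation enzymes (1 of 12 positive), -0.29 for the trafficking genes (2 of 11) and -1.03 for the transcription factors (0 of 10), and that of the receptor pathway was -2.10, where all genes had a median of -1.94. Among the most abundant of these, the membrane mucin Muc13 was estimated at 1.26 ± 0.73, the transcription factor Klf4 at 0.46 ± 0.40, the glycosyltransferase Galnt4 at 0.58 ± 0.33 and the granule SNARE Vamp8 at 1.47 ± 0.61 (adjusted p = 0.364).

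Of these lists, the other IL-13 induced genes were farthest apart, with 7 of 8 positive estimates and a median of 4.78 for the Hoil1 effect in f/f mice. For the Il4ra effect in Hoil1-/- mice, 1 of 8 was positive, with a median of -4.10. The list was chosen with earlier results of these data known, so its distance is a description and no independent support. Pla2g4c, a phospholipase, averaged 251 CPM in Hoil1-/- f/f libraries and 1.16 CPM in Hoil1+/+ f/f libraries (log2 8.26 ± 1.23, adjusted p = 0.0540). Sprr2a3, of the small proline-rich proteins, averaged 137 and 4.49 CPM (5.62 ± 1.33, adjusted p = 0.205), and Gsdmc4, a gasdermin, 221 and 18.6 CPM (3.89 ± 0.96, adjusted p = 0.219). Relative to Epcam the list kept 7 of 8 positive estimates for the Hoil1 effect, with a median of 3.56.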

How the data were processed

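RNA-seq libraries of sorted ileal cells were analysed: 12 CD45- libraries in 4 genotypes of 3, and 12 CD45+ libraries for a check. The authors trimmed the reads, aligned them with STAR to mm10 (GRCm38), counted them per ENSEMBL gene with featureCounts and deposited raw counts, without normalization. Of 39056 gene IDs, 38872 matched GENCODE M21, ignoring ID versions. CPM used total gene counts. Differences were tested with TMM-scaled edgeR (4.0.16, R 4.3.3), by quasi-likelihood, with 1 mean per genotype, genes kept at a minimum count of 10 and total of 15, and Benjamini-Hochberg adjustment over all genes at 0.05. The script was tested on simulated data, and the fit was repeated with library sizes set to the Epcam count. The fits used 11 libraries, without the one the authors removed, and all 12 as an alternative. Exact permutation tests (two-sided) used log2((CPM + 0.5)/(Epcam CPM + 0.5)), with Hoil1 labels permuted within Il4ra genotype. Alternatives were DESeq2 1.42.0, the likelihood ratio test, other size factors, no filter, other reference genes, other pseudocounts and leaving out each library. Depth was 6.03 to 68.3 M counts, and 3 counts were taken as the floor. The 10 products and all gene lists were chosen with earlier results of these data known. Genes named are the 10 products, Epcam, Rbck1 and Il4ra, of each list those past the threshold in any fit (at most 6) and the most abundant, and the 5 genes most like the products. Atoh1, Spdef, Lyz1, Trpm5, Pecam1, Col1a1 and the ratio to Muc2 were chosen after values were seen. A gene that met the rule for named genes is not reported here.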

Additional observations from a re-analysis of the deposited data

Results flagged for a closer look

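For the following genes outside the products, the Hoil1 effect relative to Epcam differed between ΔIEC and f/f mice by the test of that difference in edgeR on 11 libraries. The log2 differences (ΔIEC minus f/f) were 7.16 for Socs3, 4.94 for Il2rg, 4.58 for Jak3, 3.98 for Il4ra, 3.94 for Jak1 and 3.42 for Stat6 among genes of IL-4 and IL-13 signalling. For granule trafficking genes they were 4.15 for Snap23, 3.43 for Rab27a and 2.96 for Rab3d. They were 3.73 for Dmbt1, 3.53 for Xbp1, 2.95 for Creb3l1, 2.44 for C1galt1, 2.21 for Galnt7 and 3.49 for Rbck1. Of these genes, Sprr2a3 (-4.41) and Pla2g4c (-3.35) had negative values. The median over all 16452 genes was 3.39 and 7222 passed, so a positive value is not particular to these genes. The positive values lay on both sides of that median, farthest above it for Socs3. With all 12 libraries, 0 genes passed for this difference, and on the TMM scale 0 of 16453 did. The products were also counted in CD45+ cells, which no comparison used: their summed level was 655 CPM in the first CD45+ Hoil1-/- f/f library, a library that the authors left out, and 102 and 362 CPM in the others of its group, against 21.2 to 117 CPM in the CD45+ Hoil1+/+ f/f libraries. It was 41.7 to 280 CPM in the CD45+ Hoil1+/+ ΔIEC and 34.6 to 63.3 CPM in the CD45+ Hoil1-/- ΔIEC libraries.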

How the results depend on the processing

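Of 198 alternatives to the 12 counts of called products, 189 stayed within 1.5 times the count and 9 moved. All 12 counts were 0, so staying means remaining at 0. On the TMM scale at most 7 of 16453 genes passed in any main comparison, so the 189 say little about robustness. DESeq2 called 1 product in the averaged Hoil1 effect, 1 in the Hoil1 effect in f/f mice, 1 in the Il4ra effect in Hoil1-/- mice and 1 in the difference of the Hoil1 effects. The likelihood ratio test called 1, 1 and 2 in the first 3 of these, against 0.821%, 2.13% and 3.99% of all genes. The call in the averaged effect by DESeq2, and those in the first 2 effects by the likelihood ratio test, were of Retnlb, which passed the filter on low counts only through the Hoil1-/- libraries. Relative to Epcam, leaving out 1 library at a time gave 0 to 2 products for the Il4ra effect in Hoil1-/- mice. The shares of all genes called in those refits are not given, so these calls cannot be read as particular to the products. Of 678 alternatives to single values, 42 changed sign and 12 passed the threshold where the main value did not. The cause was not tested. With all 12 libraries, the Hoil1 effect in f/f mice was -0.062 for Itln1 and, relative to Epcam, -0.056 for Muc2 and -0.14 for Zg16, while the Il4ra effect in Hoil1-/- mice relative to Epcam was 0.023 for Fcgbp, 0.34 for Zg16, 0.14 for Tff3 and -0.28 for Spink4. With Cdh1 in place of Epcam, the former was 0.66 for Fcgbp and 0.55 for Agr2 and the latter -0.48 for Spink4, and with the epithelial panel the latter was 0.021 for Tff3. In the exact permutation test the difference for Fcgbp was -0.20 with all 12 libraries. With Muc2 as the reference, chosen after seeing the data, it was -0.54 for Fcgbp (-0.58 with 12 libraries), -0.30 for Zg16 (-0.33), -0.19 for Tff3 (-0.048), -0.047 for Agr2 and -0.11 for Ang4. Leaving out 1 library at a time, the Hoil1 effect in f/f mice ran from -0.18 to 1.78 for Itln1, the upper value without the first Hoil1+/+ f/f library. Relative to Epcam it ran from -0.056 to 1.03 for Muc2, -0.63 to 0.25 for Fcgbp, -0.27 to 1.00 for Zg16, -0.027 to 0.90 for Tff3, -0.57 to 0.093 for Agr2 and -0.18 to 0.60 for Spink4. The Il4ra effect in Hoil1-/- mice relative to Epcam ran from -0.78 to 0.10 for Fcgbp, -0.81 to 0.47 for Zg16, -0.73 to 0.31 for Tff3 and -0.46 to 0.34 for Spink4. No paired analysis was possible because the labels give no replicate numbers that tie libraries of different genotypes together. The 9 products counted in every library varied 10.6-fold or more between libraries of 6.03 M counts or more, so the spread between libraries exceeded counting error.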
